A study of Mus musculus with 6 samples.

Results

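The mature myelin genes described here are Mbp, Mog, Mag, Mobp, Cnp, Mal, Myrf, Cldn11 and Ugt8a, taken as a fixed list of 9 symbols out of the 54752 genes in the count tables. All 9 were matched by the symbol of their Ensembl identifier, and all 9 passed the filter on low counts, which 18617 genes passed. RNA-seq had been performed on the whole right hippocampus of 3 sham and 3 BCAS mice, wild-type C57BL/6 males aged 14 weeks, with 1 library per mouse and RNA taken 3 weeks after the operation. In bilateral carotid artery stenosis (BCAS), a microcoil narrows each common carotid artery, with the tighter coil on the right side. Sham mice underwent the same surgery without coils.

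Myelin is the membrane that oligodendrocytes wrap around axons in the central nervous system. In the mouse hippocampus it lies mainly in the fibre layers and in the adjoining alveus and fimbria. The genes fall into proteins of compact myelin (Mbp, Mobp, Mal, Cldn11), proteins of the non-compacted and outer membranes (Cnp, Mag, Mog), an enzyme of myelin lipid synthesis (Ugt8a) and a transcription factor that switches on the myelin genes (Myrf). White matter is widely studied under low cerebral blood flow, and the comparison here asks whether the transcripts of the mature sheath differed in a hippocampus that carries the lesions of severe BCAS.

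No myelin gene passed the test between BCAS and sham mice (edgeR quasi-likelihood test, Benjamini-Hochberg adjusted P under 0.05), whereas 31.3% of all tested genes did, 18.0% higher and 13.2% lower. At an unadjusted P under 0.05 there was 1 of the 9 (Mbp), against 42.4% of all tested genes. The log2 fold changes ran from -0.31 for Mal to 0.42 for Mbp, with 6 above 0 and 3 below. Cnp, counted above 0, was close to 0 and lay below it with DESeq2, limma-voom, RLE factors, no filter and the replicate block. The median was 0.13, and that of all tested genes was 0.02. Without BCAS mouse 3 the direction of the list turned, to 3 above 0 (Mbp, Mobp and Myrf), 6 below and a median of -0.15. The 95% interval of every member lay between -1 and 1 on the log2 scale, from -0.62 at the lowest bound (Mal) to 0.82 at the highest (Mbp). The mice within a group differed, and all 9 genes ranked them alike.

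The libraries held 29652456 to 35607098 counts. All 6 hippocampal neuron markers were well expressed in sham mice. In BCAS mice 3 of them were called lower, Fibcd1 (log2 fold change -1.91), Neurod6 (-1.56) and Rbfox3 (-0.61), whereas Wfs1 (-0.30), Prox1 (-0.14) and Zbtb20 (-0.03) were not called. All 6 microglia markers and all 6 astrocyte markers were called higher (medians 2.65 and 0.74). The choroid plexus markers set libraries apart regardless of group: their summed level was 40.3 CPM in BCAS mouse 2 and 69.8 CPM in sham mouse 3, and 986 to 5918 CPM in the other 4. CPM are counts scaled to the size of the library, here corrected by edgeR's TMM factors. A change in the number of oligodendrocytes and a change in myelin RNA per oligodendrocyte cannot be told apart in bulk tissue.

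Counts for the members were high, with 1567 as the lowest in any library, so counting error was small beside the spread between mice. Mobp shares 79 exon bases with Gm38642, and Cnp shares 154 with Dnajc7 on the opposite strand, which is 1.15% and 4.23% of their exon bases. Reads on the shared bases were not assigned to either gene, and the other 7 members share no exon base with another gene.

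Promoters of 7 members were found in RefSeq's table for GRCm38.p6, and those of the lowest and the highest fold change among these 7, Mal and Mobp, are shown because these genes differed most in direction. Each runs 5′ to 3′ and ends at the base before the gene's annotated start, Mal at chr2:127656696-127656945 on the minus strand and Mobp at chr9:120149492-120149706 on the plus strand. Capitals mark the letters ACAAAG or their reverse complement CTTTGT, a motif of the SOX family to which Sox10 of oligodendrocytes belongs.
Mal: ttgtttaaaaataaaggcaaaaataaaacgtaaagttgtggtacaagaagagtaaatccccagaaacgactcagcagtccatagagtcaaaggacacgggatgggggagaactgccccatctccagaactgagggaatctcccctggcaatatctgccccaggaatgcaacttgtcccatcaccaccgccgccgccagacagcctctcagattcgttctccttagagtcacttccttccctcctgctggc
Mobp: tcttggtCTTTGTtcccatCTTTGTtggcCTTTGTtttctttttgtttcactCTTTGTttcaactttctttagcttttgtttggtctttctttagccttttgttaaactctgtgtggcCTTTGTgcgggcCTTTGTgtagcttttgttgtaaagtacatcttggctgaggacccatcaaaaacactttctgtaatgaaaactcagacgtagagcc

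On either strand, ACAAAG was present in the 300-base windows of 3 of the 7 members (Mag, Mobp and Cnp) and in 18.7% of the 32851 windows of all genes. The stretch of Mobp held 6 matches, all read as CTTTGT, and that of Mal held none. The letters CTGGCAC, a form of the Myrf motif, were present for Mag and Cnp and in 5.01% of all windows. Neither ACAATG nor TATAAA, present in 12.6% and 13.6% of all windows, was found for any of the 7. A member was counted if any of its windows held the letters, whereas the percentages are shares of single windows. The member counts and these shares are therefore not in the same unit. A match describes the letters of a window and not binding.

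Mbp encodes myelin basic protein, which holds the cytoplasmic faces of compact myelin together. The gene (ENSMUSG00000041607.16) lies on chromosome 18 of mm10 from 82475146 to 82585637 on the plus strand, with 8403 bases of merged exons. Mbp was measured at 3189, 2939 and 2658 CPM in sham mice 1 to 3 and at 3651, 3316 and 4784 CPM in BCAS mice 1 to 3. It was the only member whose groups did not overlap, all 3 BCAS mice being above all sham mice, and 48.0% of all tested genes also had groups without overlap. The means were 2929 ± 266 and 3917 ± 769 CPM (SD, n = 3 mice each), and the log2 fold change of 0.42, whose standard error was 0.17, did not pass (edgeR adjusted P = 0.101). With DESeq2 in place of edgeR Mbp passed (log2 fold change 0.40, DESeq2 adjusted P = 0.0156). The adjusted P ran from 0.0156 to 0.265 over all alternatives. The gene also gives rise to Golli transcripts, which other cells express, and counts per gene do not separate them.

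Mobp encodes another small basic protein of compact myelin. It lies on chromosome 9 from 120149707 to 120181484 on the plus strand. Its CPM was 923, 795 and 679 in sham mice 1 to 3 and 894, 782 and 1231 in BCAS mice 1 to 3, so that only BCAS mouse 3 was above the sham range. The log2 fold change of 0.28, with a standard error of 0.18, did not pass (edgeR adjusted P = 0.281).

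Mal, a proteolipid that organises lipid-rich membrane domains, lies on chromosome 2 from 127633226 to 127656695 on the minus strand. It was the member with the lowest fold change. Its CPM was 299, 287 and 249 in sham mice 1 to 3 and 215, 188 and 272 in BCAS mice 1 to 3. BCAS mice 1 and 2 were below every sham mouse, and BCAS mouse 3 lay inside the sham range. The means were 278 ± 26.4 and 225 ± 43.0 CPM (SD, n = 3 each), and the change of -0.31 on the log2 scale had a standard error of 0.14 (edgeR adjusted P = 0.120). Without BCAS mouse 3 it was -0.47 and passed (edgeR adjusted P = 0.0116), in a fit that called 4333 genes in all against 5819 with all mice. This was the lowest of the adjusted P values over the alternatives, which reached 0.297.

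Cldn11 forms the tight junctions between myelin layers and lies on chromosome 3 from 31149920 to 31164324 on the plus strand. Its CPM was 138, 138 and 125 in sham mice 1 to 3 and 142, 124 and 215 in BCAS mice 1 to 3. BCAS mouse 3 stood apart from the other 5 mice, which lay between 124 and 142 CPM. The log2 fold change was 0.26 with all mice and -0.01 without BCAS mouse 3 (edgeR adjusted P = 0.298 and 0.937). Cldn11 is also expressed in the meninges, and 3 of 6 meningeal fibroblast markers were called higher in BCAS mice, whose summed level was 105 to 174 CPM in sham and 218 to 283 CPM in BCAS mice. Their part in the Cldn11 level was not tested.

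**Figure D1:**
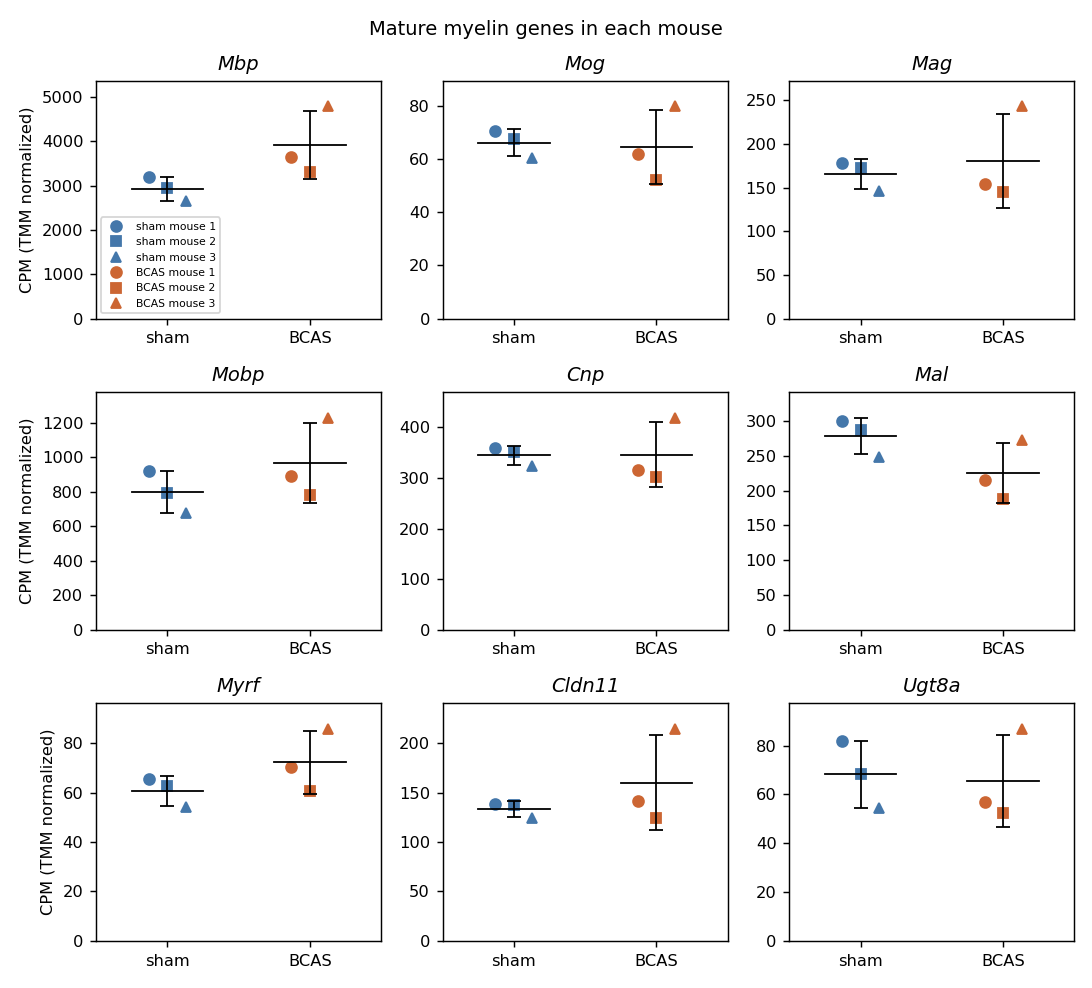
TMM-normalized CPM of the 9 myelin genes in the 3 sham mice (blue) and 3 BCAS mice (orange), with 1 symbol per mouse, the mean as a line and the SD as a bar. Only for Mbp are all BCAS mice, at 3316 CPM or more, above all sham mice, at 3189 CPM or less.

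Among the proteins outside compact myelin, the groups overlapped for all 3 genes. Cnp encodes a phosphodiesterase that keeps cytoplasmic channels open in the sheath (chromosome 11 from 100574904 to 100591729, plus strand). Its CPM was 359, 351 and 323 in sham mice 1 to 3 and 316, 302 and 419 in BCAS mice 1 to 3. BCAS mice 1 and 2 were below every sham mouse and BCAS mouse 3 was above them. The group means of 344 ± 18.9 and 346 ± 63.9 CPM (SD, n = 3 each) were nearly equal, and the 95% interval of the log2 fold change was -0.28 to 0.29.

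Mag encodes an adhesion protein of the innermost membrane facing the axon (chromosome 7 from 30899176 to 30914873, minus strand). It was at 178, 173 and 146 CPM in sham mice 1 to 3 and at 154, 145 and 243 CPM in BCAS mice 1 to 3. The interval of its log2 fold change was -0.29 to 0.54, and without BCAS mouse 3 the change was -0.15 in place of 0.13. Mog, a protein of the outermost sheath surface, lies on chromosome 17 from 37010743 to 37023398 on the minus strand. It was at 70.3, 67.5 and 60.5 CPM in sham mice 1 to 3 and at 61.7, 52.0 and 79.6 CPM in BCAS mice 1 to 3. Neither gene passed the test (edgeR adjusted P = 0.641 for Mag and 0.875 for Mog).

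Ugt8a encodes the enzyme that adds galactose to ceramide, the step that makes the galactolipids of myelin (chromosome 3 from 125865271 to 125938619, minus strand). It varied most among the sham mice, with 81.9, 68.4 and 54.5 CPM in sham mice 1 to 3, and was at 57.0, 52.4 and 86.9 CPM in BCAS mice 1 to 3. The ranges of the groups nearly coincide, and the 95% interval of its log2 fold change, -0.52 to 0.40, was the widest of the 9. Myrf, the transcription factor that keeps myelin genes active in mature oligodendrocytes, lies on chromosome 19 from 10208272 to 10240748 on the minus strand. It was at 65.5, 62.7 and 54.0 CPM in sham mice 1 to 3 and at 70.3, 60.6 and 85.8 CPM in BCAS mice 1 to 3. BCAS mice 1 and 3 were above the sham range, and the change of 0.25 on the log2 scale, with a standard error of 0.13, did not pass (edgeR adjusted P = 0.174). Without BCAS mouse 2 both Myrf (0.35, edgeR adjusted P = 0.0445) and Mbp (0.52, edgeR adjusted P = 0.0361) were called higher, in a fit that called 6646 genes in all against 5819 with all mice.

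Per kilobase of merged exons, Mbp had the highest level in sham mice with 349 CPM per kilobase, followed by Mobp (117), Mal (100.2), Cnp (94.7), Cldn11 (71.4), Mag (40.7), Mog (38.8), Ugt8a (15.0) and Myrf (7.10). Mal and Cnp, and likewise Mag and Mog, are neighbours that differ by less than the larger of their coefficients of variation. In BCAS mice, Mal (81.0) stood below both Cnp and Cldn11 (85.7) on this scale, and the order was otherwise the same.

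**Figure D2:**
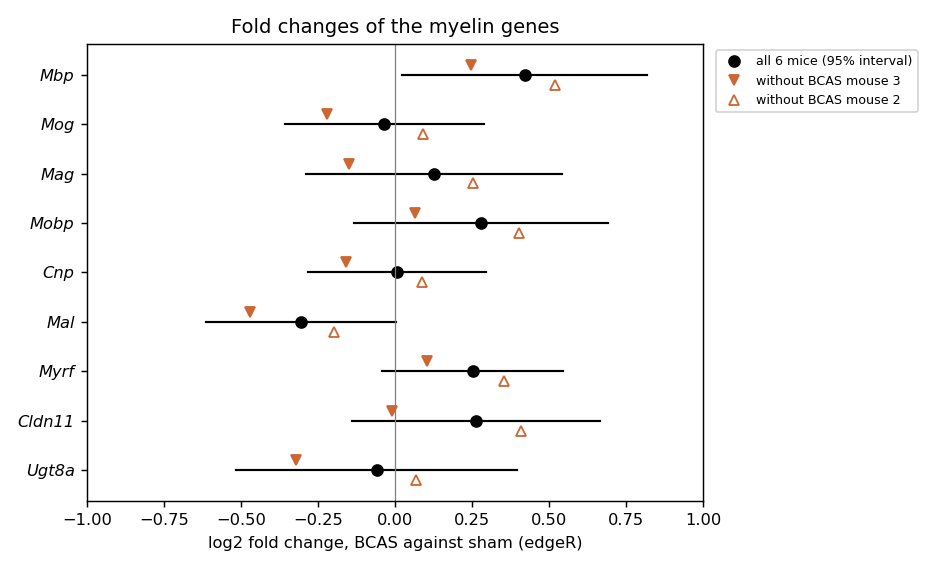
Log2 fold change of each myelin gene in BCAS against sham mice from edgeR (black, with the 95% interval) and after leaving out BCAS mouse 3 (filled) or BCAS mouse 2 (open). All intervals lie between -1 and 1, and each gene moved down without BCAS mouse 3 and up without BCAS mouse 2.

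The mice of a group differed from each other in the same way for all 9 genes. Sham mouse 1 had the highest and sham mouse 3 the lowest CPM of its group for each of the 9, and so did BCAS mouse 3 and BCAS mouse 2 in theirs. Both orders together were seen in 4.02% of all tested genes, in 10 of 20 other proteins of myelin and the mature oligodendrocyte, in 4 of 10 enzymes of myelin lipids, in 3 of 12 genes of precursors and newly formed oligodendrocytes and in 1 of 10 transcription factors of the lineage. With library totals in place of TMM it was again all 9 members and 5.92% of all tested genes. The 9 values come from the same 6 libraries, so they do not add to the number of mice.

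BCAS mouse 3 was above the sham mean for 8 of the 9 genes, Mal being the exception, with a median log2 deviation of 0.50. It had the highest value of all 6 mice for the same 8. BCAS mouse 2 was above the sham mean for Mbp alone (median -0.19), and BCAS mouse 1 for Mbp, Mobp, Myrf and Cldn11 (median -0.10). In these terms the BCAS mice did not agree on a direction for most myelin genes. The coefficient of variation was 5.50% to 20.1% among sham mice and 17.6% to 30.0% among BCAS mice, and it was larger in BCAS mice for each member. BCAS mouse 3 was the farthest from the other BCAS mice for all 9 genes, so leaving it out lowers the coefficient by construction. Between BCAS mice 1 and 2 alone, a calculation added after seeing the data, it was 3.29% to 12.2%. It was then larger than among sham mice for 4 members (Mog, Mal, Myrf and Cldn11), against 9 with all mice. These values are a description with no test.

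Marker lists of other cells differed between the same mice. The whole order was seen in 1 of 5 thalamus, 1 of 6 microglia, 0 of 6 astrocyte, 0 of 6 neuron and 0 of 5 choroid plexus markers. In sham mice 1 to 3 the summed level ran in the order of the myelin genes for the thalamus markers (88.7, 73.9 and 72.6 CPM) and the astrocyte markers (3920, 3680 and 3554 CPM). Taken singly, 3 of the 5 thalamus markers but 2 of the 6 astrocyte markers were highest in sham mouse 1 and lowest in sham mouse 3. BCAS mouse 3, highest in myelin genes, had the highest summed level of the 5 thalamus markers (149 CPM, against 83.4 and 86.0 CPM in BCAS mice 1 and 2). Of these, Prkcd was at 76.6 CPM in BCAS mouse 3 and was called higher (log2 fold change 0.91, edgeR adjusted P = 0.0265). The other 4 were not called. Summed endothelial (339 CPM, against 335 and 305) and meningeal fibroblast markers (283 CPM, against 218 and 233) were also highest in BCAS mouse 3. Astrocyte and choroid plexus markers were highest in BCAS mouse 1. BCAS mouse 3 also had the highest of the 6 microglia markers (2170 CPM, against 1358 and 1423) and the lowest of the 6 neuron markers (598 CPM, against 812 and 686). Neurod6, Fibcd1 and Rbfox3 had their lowest BCAS value in this mouse. Prox1 and Zbtb20 were lowest in BCAS mouse 2 and Wfs1 in BCAS mouse 1. Sham mouse 3 and BCAS mouse 2, lowest in myelin genes, were the libraries with the least choroid plexus signal. Their part in the myelin values was not tested. Without these 2 libraries, a fit chosen after seeing the data, no member was called either. Of the Schwann cell markers, which cover the myelin of peripheral nerves, Pmp2 had 0 counts in every library, Ncmap 12 to 19 and Prx, which vessels also express, 31 to 90, and neither of the latter was called. Egr2, which neurons express too, had 46 to 70 counts in sham and 136 to 201 in BCAS mice and was called higher (log2 fold change 1.75, edgeR adjusted P = 0.00135).

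**Figure D3:**
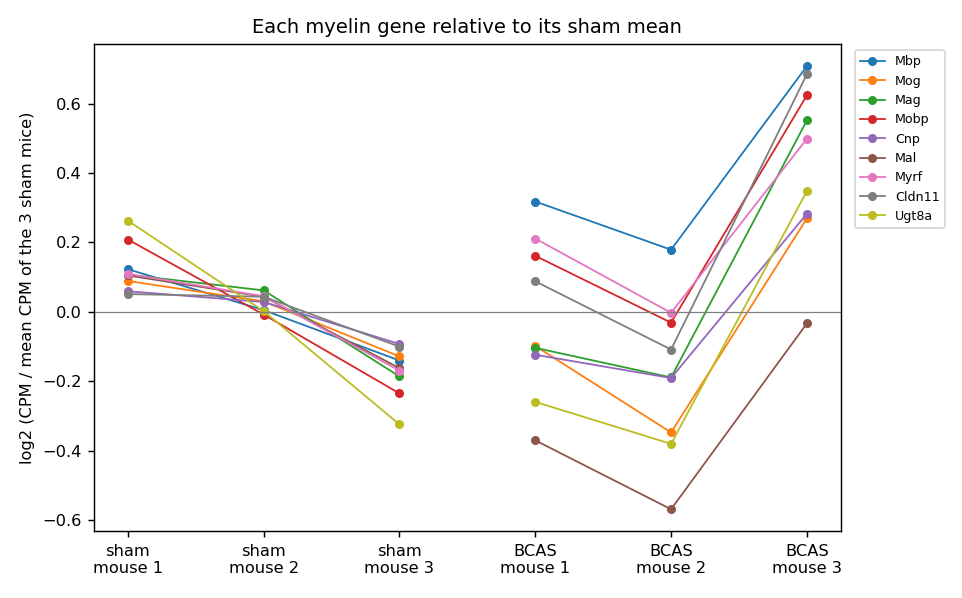
Log2 ratio of each mouse's CPM to the mean of the sham mice, for the 9 myelin genes. Lines join the values of 1 gene within a group and imply no order of the mice. BCAS mouse 3 is highest in its group for every gene, with Mal alone below 0, and Mbp alone is above 0 in all 3 BCAS mice.

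Since all members varied together, the other 8 were also set against Mbp, the most abundant of them, within the same mouse. Such a ratio does not depend on library scaling. Mbp also has the highest fold change of the 9, so a lower ratio in BCAS mice follows from its choice as the reference, and the ratios are given as a description with no test. For 6 of the 8 the ratio in every BCAS mouse was below that in every sham mouse, as it was for 40.8% of all tested genes.

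Mal and Mbp, the members with the lowest and highest fold change, are a pair chosen after their values were seen. The Mal CPM was 9.39%, 9.76% and 9.36% of the Mbp CPM in sham mice 1 to 3 and 5.90%, 5.66% and 5.69% in BCAS mice 1 to 3. The means were 9.50% ± 0.225 and 5.75% ± 0.131 (SD, n = 3 each), and the gap between the groups exceeded the range within either. The BCAS ratio was 0.605 times the sham ratio, the lowest of the 8.

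Among the genes outside compact myelin, Cnp was at 11.26%, 11.96% and 12.16% of Mbp in sham mice 1 to 3 and at 8.66%, 9.11% and 8.76% in BCAS mice 1 to 3. Mog was at 2.20%, 2.30% and 2.28% in sham mice 1 to 3 and at 1.69%, 1.57% and 1.67% in BCAS mice 1 to 3. For both genes the spread within a group was small beside the distance between the groups. Mag went from 5.65% ± 0.208 to 4.56% ± 0.453 and Ugt8a from 2.32% ± 0.259 to 1.65% ± 0.141 (SD, n = 3 each). Myrf had the smallest shift of the 6, with 2.07% ± 0.0523 in sham and 1.85% ± 0.0687 in BCAS mice.

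The groups overlapped for Mobp and Cldn11, both from compact myelin. Mobp was at 29.0%, 27.1% and 25.6% of Mbp in sham mice 1 to 3 and at 24.5%, 23.6% and 25.7% in BCAS mice 1 to 3, so that BCAS mouse 3 lay just above sham mouse 3. Cldn11 was at 4.57% ± 0.200 and 4.04% ± 0.396 (SD, n = 3 each). All 8 ratios share the Mbp value of each mouse, so they are not independent of each other.

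**Figure D4:**
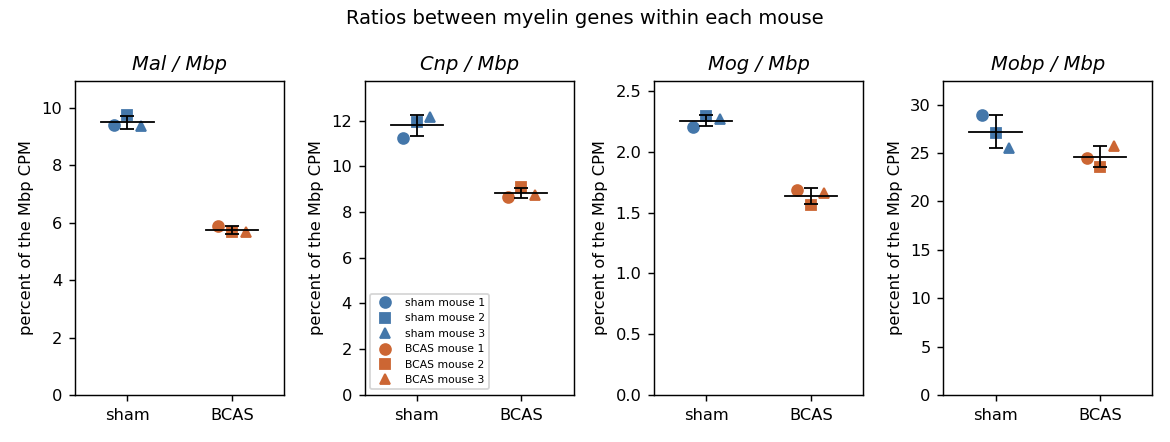
CPM of Mal, Cnp, Mog and Mobp as a percentage of the Mbp CPM of the same mouse, with the mean as a line and the SD as a bar (n = 3 mice each). Mal is 9.36% to 9.76% of Mbp in sham mice, above the 5.66% to 5.90% of the BCAS mice, whereas the Mobp ratios overlap.

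Other genes linked to myelin or oligodendrocytes were read from 5 lists in the same fit. Of all tested genes, 18.0% were called higher and 13.2% lower. Of 20 other proteins of myelin and the mature oligodendrocyte, 3 were called higher (15%) and 2 lower (10%), near the shares of all genes, with a median log2 fold change of 0.02. Cd9, a tetraspanin that microglia and astrocytes also express, averaged 44.1 ± 3.64 CPM in sham and 237 ± 56.6 CPM in BCAS mice (SD, n = 3 each) and rose by 2.43 on the log2 scale (edgeR adjusted P = 2.27e-05). The other 2 that rose were Plekhb1 (0.33) and Cadm4 (0.32), the latter named for its call. Omg (-0.46) and Tppp (-0.43) fell. Unlike the members, both were highest in BCAS mouse 2 and lowest in BCAS mouse 3 of their group. Omg was at 92.4, 114 and 91.3 CPM and Tppp at 412, 465 and 399 CPM in BCAS mice 1 to 3. For 15 of the 20 genes BCAS mouse 3 was highest and BCAS mouse 2 lowest of the group. The part of other cells in the calls of this list was not tested. Without sham mouse 1, 2 or 3, 1 was called higher each time, in fits that called 3902, 4021 and 3782 genes in all against 5819 with all mice. Without BCAS mouse 3, 4 were called lower, of 4333 genes called in all.

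Among 10 enzymes around the sphingolipids of myelin, Elovl1 (0.73), Galc (0.48) and Cers2 (0.43), the last named for its call, were called higher, and Ugcg (-0.43) was called lower, which is 30% and 10% of the list. Elovl1 lengthens fatty acids and Cers2 builds very long chain ceramides, whereas Galc breaks galactolipids down in lysosomes and Ugcg makes glucosylceramide, which is the competing product of ceramide. Fa2h, which hydroxylates the fatty acids of myelin lipids, was at -0.24 (edgeR adjusted P = 0.230). The list had a median of 0.22. Microglia and astrocyte markers rose in the same libraries, and their part in the calls of these enzymes was not tested.

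Of 10 transcription factors of the lineage, none was called higher and St18 alone (10%) was called lower, with 35.9 ± 2.27 CPM in sham and 23.3 ± 4.65 CPM in BCAS mice (SD, n = 3 each; log2 fold change -0.62, edgeR adjusted P = 0.0121). Sox10, the factor that marks the whole lineage, was at 54.1 ± 0.860 and 60.1 ± 10.9 CPM (log2 fold change 0.15, edgeR adjusted P = 0.366). Tcf7l2 (0.49) and Nkx2-2 (0.42) had the highest values and Sox8 was at -0.11, none of them called. The median of the list was 0.15, and without BCAS mouse 1 there was 1 factor called higher, of 4862 genes called in all.

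Of 12 tested genes of precursors and newly formed oligodendrocytes, 6 were called higher (50%) and 1 lower (8.33%), and the median log2 fold change was 0.47. Matn4 went from 9.43 ± 1.26 to 20.1 ± 4.70 CPM and Bmp4, a secreted signal of newly formed cells, from 3.38 ± 1.29 to 6.77 ± 0.533 CPM (SD, n = 3 each), with log2 fold changes of 1.09 and 1.00 (edgeR adjusted P = 0.00237 and 0.0176). Cspg4 (0.73), the NG2 proteoglycan that pericytes also carry, Gpr17 (0.53), Bcas1 (0.50) and Vcan (0.45) also rose. Tnr fell by 0.40 on the log2 scale, and Neu4 was at 0.06. Like Omg and Tppp, Tnr was highest in BCAS mouse 2 and lowest in BCAS mouse 3 of its group. The part of other cells in the values of this list was not tested. With 1 mouse left out, 3 to 7 were called higher, the fewest without sham mouse 2, where 4021 genes were called in all against 5819.

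The 7 genes known to rise in oligodendrocytes in disease models, and in other glia too, were all called higher, with a median of 3.19. Klk6 went from 1.27 ± 0.231 to 15.0 ± 9.99 CPM and H2-D1 from 41.2 ± 3.76 to 473 ± 146 CPM (SD, n = 3 each), with log2 fold changes of 3.56 and 3.52. Il33, an alarmin found in oligodendrocytes, had the smallest change (0.85, edgeR adjusted P = 0.00191), and that of Cdkn1a was 1.41. Microglia and astrocyte markers rose in the same libraries, and their part in these values was not tested.

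**Figure D5:**
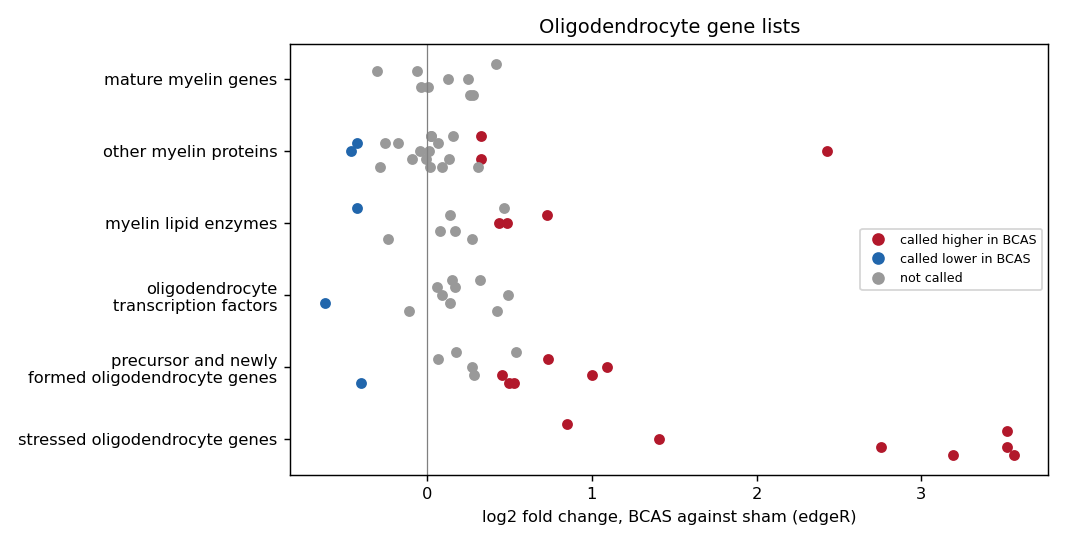
Log2 fold change in BCAS against sham mice for each tested gene of the mature myelin list and 5 other oligodendrocyte lists, coloured by its call at an edgeR adjusted P of 0.05. The mature myelin genes lie between -0.31 and 0.42 with none called, and all 7 genes of the stressed oligodendrocyte list lie at 0.85 or higher.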

How the data were processed

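Total RNA of the right hippocampus of 6 mice (3 sham, 3 BCAS, grouped by their labels) had been sequenced as paired reads. The authors trimmed the reads with Trim Galore, aligned them to mm10 with HISAT2 and counted them with featureCounts. The deposited values are raw counts of reads per gene, neither normalized nor filtered. The file headers name featureCounts 2.0.3 and GENCODE vM20, whereas the methods name 1.6.3 and RefSeq genes. Under the settings in the headers, mates are counted separately, strand is ignored, and reads that overlap several genes or align to several places are dropped.

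Genes were kept with filterByExpr, normalized by TMM and tested with edgeR's quasi-likelihood test (R 4.3.3, edgeR 4.0.16) without a replicate block, with Benjamini-Hochberg adjustment over all tested genes. A call needed an adjusted P under 0.05, and no member reached the threshold of 1 on the log2 scale that the study adds. Standard errors come from the test statistic. Ratios within a mouse are described without a test. Alternatives were DESeq2 1.42.0, limma-voom (limma 3.58.1), RLE factors, library totals, other filters, halved counts, the replicate number as a block and leaving out each mouse. Depth was 29652456 to 35607098 counts per library.

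The members and lists were chosen with earlier results of these data known. From each list the 2 highest and 2 lowest fold changes are named, with Sox10; 2 listed genes are not reported here. The labels do not say more of the replicates than that they are biological. Promoters are from RefSeq.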

Additional observations from a re-analysis of the deposited data

How the results depend on the processing

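No member was called with all 6 mice in edgeR's fit, nor with limma-voom, RLE factors, library totals, a mean of at least 10 counts or halved counts. With DESeq2 1 member was called higher (Mbp), and without a filter beyond 1 count 1 was called higher (Mbp) and 1 lower (Mal). Leaving out 1 mouse at a time gave 0 to 2 members called higher, 0 to 1 called lower and a median fold change of -0.15 to 0.25 on the log2 scale, with the lowest without BCAS mouse 3. Over all genes the calls were 3782 to 6646 when 1 mouse was left out against 5819 with all mice. Groups without overlap were seen for 1 member, also with RLE factors, library totals and halved counts. The changes of genes near 0 turned sign. For Cnp it was -0.013 with DESeq2, -0.0090 with limma-voom, -0.0084 with RLE factors, -0.00023 without a filter and -0.0093 with the replicate block. With library totals it was 0.044 for Mog and 0.020 for Ugt8a, and without sham mouse 3 and BCAS mouse 2 together it was 0.023 for Mog. With 1 mouse left out the ranges were -0.223 to 0.089 for Mog, -0.151 to 0.253 for Mag, -0.162 to 0.086 for Cnp, -0.012 to 0.409 for Cldn11 and -0.324 to 0.088 for Ugt8a. The cause was not tested. Library totals moved the median of all genes from 0.018 to 0.095. Mice with a common replicate number were not treated as pairs, since their deviations from the group means correlated at 0.036, -0.314 and -0.158, and with the replicate block no member was called and 4532 genes were called in all. With 3 mice a group, the intervals of the members still hold changes of up to 0.82 on the log2 scale.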
